A study of Mus musculus with 2 samples.

Results

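The miR-99/100 and miR-125 genes of fetal mouse lung are described here, as 7 of the 1973 microRNA genes in the count tables. They were taken by name: Mir99a, Mir99b and Mir100 of the miR-99/100 family, Mir125a, Mir125b-1 and Mir125b-2 of the miR-125 family, and Gm25927, a hairpin annotated opposite the let-7 gene that sits between Mir99b and Mir125a. All 7 were found and all 7 had at least 10 counts in each library, the level at which a gene is called detected below; 347 of the 1973 genes reached it. Small RNA under 30 bases was sequenced from lungs of B6NCrl embryos at day 16.5 of gestation, with both sexes pooled and no genetic change or treatment named. The libraries, biological replicates 1 and 2, form a single group, so no condition can be compared. Replicate 2 came from 41 embryos, and the labels give no number of embryos for the pool of replicate 1.

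A microRNA gene is transcribed as part of a longer RNA, from which a hairpin is cut out and trimmed to a short mature RNA. The bases of its seed, positions 2 to 8, largely decide which messenger RNAs it pairs with and represses. In many animals a miR-99/100 gene, a let-7 gene and a miR-125 gene lie side by side and can come from a single primary transcript. let-7 and lin-4, the worm relative of miR-125, were found as regulators of developmental timing, and let-7 accumulates as tissues mature. miR-99/100 RNAs are known to repress components of the mTOR growth pathway, and miR-125 RNAs to repress Lin28, a protein that blocks let-7 processing.

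The mouse has 3 such clusters, each in the order miR-99/100, let-7, miR-125 on the plus strand. The mature sequences below come from RefSeq (build GRCm38.p6), are written 5′ to 3′, and carry the seed in capitals. They are shown because the members fall into families by seed, and because small differences outside the seed decide which gene a read can be given to.
miR-99a-5p: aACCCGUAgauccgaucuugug
miR-100-5p: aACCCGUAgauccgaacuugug
miR-99b-5p: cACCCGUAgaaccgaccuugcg
miR-125a-5p: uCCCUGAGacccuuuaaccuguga
miR-125b-5p: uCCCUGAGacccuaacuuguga
miR-351-5p: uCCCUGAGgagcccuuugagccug
let-7e-5p: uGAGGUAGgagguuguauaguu
let-7c-5p: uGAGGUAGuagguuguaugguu
miR-10a-5p: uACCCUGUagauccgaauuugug

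With positions counted from 1 at the 5′ end, miR-99a-5p differs from miR-100-5p by a single substitution, U16A, and from miR-99b-5p by 4: A1C, U11A, U16C and U21C. The seed was the same in all 3. miR-125a-5p (24 bases) and miR-125b-5p (22 bases) share their first 13 bases. A search of all listed mature microRNAs for these seeds found no other gene with that of miR-99/100, and 3 others with that of miR-125: Mir351, Mir6367 and Mir6394. miR-351-5p shares its first 8 bases with both miR-125 RNAs. miR-10a-5p has another seed but shares a run of 11 bases with miR-100-5p and of 10 with miR-99a-5p.

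The tables keep reads that match several loci on a line of their own, so the number of places a mature sequence occurs bears on each count. Each listed mature arm of Mir99a, Mir99b, Mir100 and Mir125a occurred in 1 of 1894 annotated hairpins. miR-125b-5p occurred in both Mir125b-1 and Mir125b-2, whose 3p arms differ from each other at 5 of 22 positions (G3A, G4A, U7C, C11U and G20C, with miR-125b-1-3p as the reference). The 3p arms are shown because they are the part of the mature product that tells these genes apart.
miR-125b-1-3p: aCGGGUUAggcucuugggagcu
miR-125b-2-3p: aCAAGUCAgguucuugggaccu

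The hairpins of Mir99a and Mir100 are shown with their mature arms in capitals, since these genes, whose 5p arms are nearly identical, stood far apart in level. The counts are per gene and do not separate the arms, and the 3p arms share a run of at most 6 bases. Mir99a is at chr16:77598936-77599000 and Mir100 at chr9:41531425-41531504, both on the plus strand.
Mir99a: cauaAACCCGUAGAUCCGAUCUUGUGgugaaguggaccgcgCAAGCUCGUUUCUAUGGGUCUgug
Mir100: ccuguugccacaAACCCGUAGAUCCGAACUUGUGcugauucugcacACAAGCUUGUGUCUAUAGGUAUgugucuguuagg

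By the GENCODE M21 annotation of mm10, Mir99a (ENSMUSG00000065530.1) and Mir125b-2 (ENSMUSG00000065472.1, chromosome 16 at 77646273 to 77646343) lie in introns of the long RNA gene Mir99ahg, with Mirlet7c-1 between them. The hairpin of Mir125b-2 starts 47337 bases after that of Mir99a. Mir100 (ENSMUSG00000093011.1) and Mir125b-1 (ENSMUSG00000093354.1, chromosome 9 at 41581926 to 41582002) lie in introns of 3110039I08Rik, with Mirlet7a-2 between them, and their starts are 50501 bases apart. The chromosome 17 cluster is compact, with 624 bases between the starts of its outer hairpins. There Mir99b (ENSMUSG00000065396.1, 17830188 to 17830257) is in an intron of the protein-coding gene Spaca6 and Mir125a (ENSMUSG00000065479.1, 17830812 to 17830879) overlaps an annotated exon of it. Gm25927 (ENSMUSG00000092799.1, 17830343 to 17830459) is annotated on the minus strand and covers all 93 bases of Mirlet7e on the plus strand.

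The libraries held 6376715 counts over microRNA genes in replicate 1 and 4123748 in replicate 2, out of 12868638 and 8452506 reads. Levels are given in CPM, counts scaled to a total of 1000000 over microRNA genes, as the mean ± SD of the libraries (n = 2). Levels and ratios between genes compare counts. Whether different mature RNAs were captured equally well was not tested. The upper limit that goes with a count of 0, taken as 3 counts, was 0.470 CPM in replicate 1 and 0.727 CPM in replicate 2, for counting error only. Reads that matched several loci were 30.0% and 31.8% of all reads. Of the marker microRNAs used to check the tissue label, those of endothelium (1 of 1), epithelium (5 of 5), smooth muscle and mesenchyme (5 of 5) and multiciliated cells (3 of 3) were detected. The neural markers Mir9-2 and Mir124a-1 had 0 counts, but their mature RNAs come from several genes, whose reads would fall among those that match several loci, so these zeros do not bear on the tissue. In such bulk tissue, fewer cells of a type and less RNA per cell cannot be told apart.

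Together the 7 genes held 6.19% ± 0.406 of all gene counts (SD, n = 2), 5.90% in replicate 1 and 6.47% in replicate 2. The miR-99/100 genes made up most of it. Their summed level was 53672 CPM ± 3986, against 3223 CPM ± 81.1 for the miR-125 genes and 4960 CPM ± 10.8 for Gm25927. Reads of miR-125b-5p that match both Mir125b genes would be missing from the miR-125 sum, so the size of this contrast is uncertain.

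Mir99a stood at 33744.5 CPM in replicate 1 and 37125.2 CPM in replicate 2, place 7 of all microRNA genes in each. It held 66.4% and 65.7% of the counts of the miR-99/100 genes. Mir99b stood at 14373.2 and 16175.1 CPM, place 17 in each library. Mir100, whose 5p arm differs from that of Mir99a by the single base given above, stood far lower at 2736 and 3190 CPM (places 57 and 49). Within a library Mir99a had 12.3 times the counts of Mir100 in replicate 1 (95% interval 12.1 to 12.5) and 11.6 times in replicate 2 (11.4 to 11.8). Per kb of hairpin these ratios were 15.2 and 14.3. The counts of Mir99a were 2.35 and 2.30 times those of Mir99b, and those of Mir99b were 5.25 and 5.07 times those of Mir100. The 3 genes kept this order in both libraries and did not overlap.

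Of the miR-125 genes, Mir125a stood at 2669 CPM in replicate 1 and 2767 CPM in replicate 2, places 58 and 57, and held 84.3% of the counts of these genes in each library. Mir125b-2 stood at 323 and 315 CPM (places 141 and 143). Mir125b-1 was the lowest member in both libraries, at 173 and 199 CPM, place 170 in each. The counts of Mir125a were 8.26 times those of Mir125b-2 in replicate 1 (95% interval 7.89 to 8.65) and 8.79 times in replicate 2 (8.30 to 9.32). Mir125b-2 had 1.86 and 1.58 times the counts of Mir125b-1.

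Both Mir125b genes, the lowest of the members, have the shared arm shown above. Reads of miR-125b-5p that match both genes would fall on the line for several loci, which held 3856768 reads in replicate 1 and 2684057 in replicate 2. How many of these were miR-125b was not tested, because the tables do not split that line. The counts given to Mir125b-1 and Mir125b-2 are therefore uncertain, and so is any ratio, share or sum with them. Among detected genes with an arm that occurs in 2 or more hairpins, 39 in all, the median level was 48.3 CPM, and Mir125b-2 and Mir125b-1 were at places 7 and 10. Among the 271 detected genes whose listed arms each occur in 1 hairpin, the median was 213 CPM. The spreads of these groups overlapped widely, with quartiles of 15.8 and 183 CPM for shared arms and of 23.8 and 1765 CPM for single ones. The groups leave out part of the 347 detected genes.

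**Figure D1:**
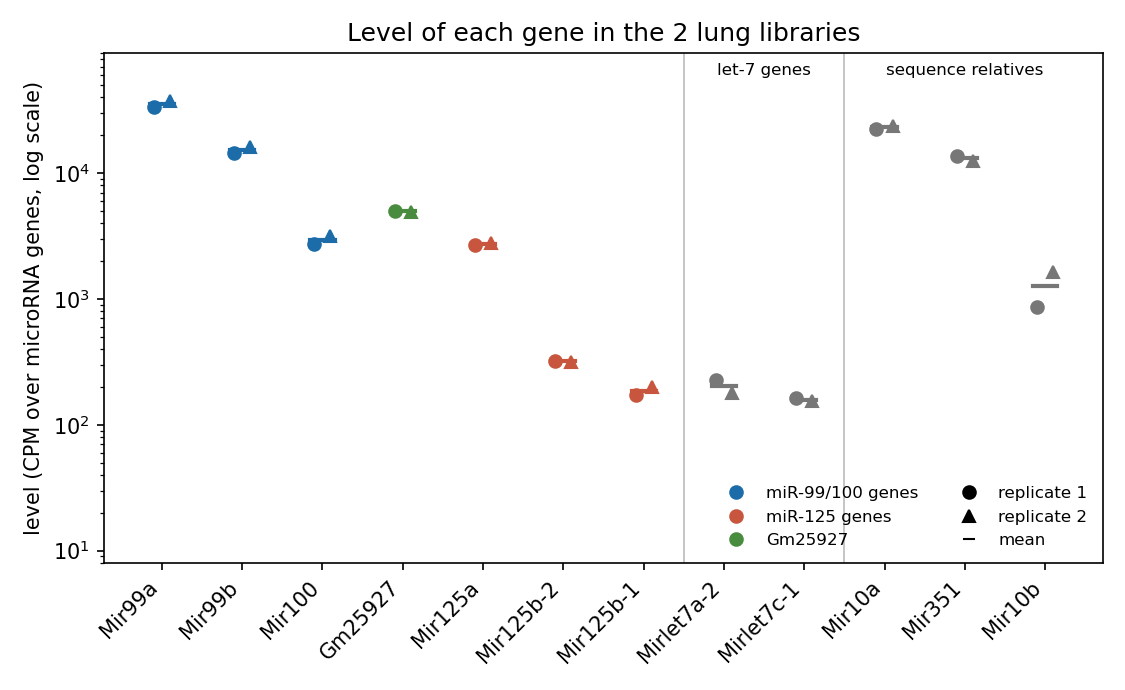
Level of each gene in CPM on a log axis, with a circle for replicate 1, a triangle for replicate 2 and a line for their mean. The 7 members are on the left, the let-7 genes of the same clusters in the middle and Mir10a, Mir351 and Mir10b on the right; the libraries lie close together for every member, while the members run from 173 to 37125.2 CPM.

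In order of the mean, the members ran Mir99a, Mir99b, Gm25927, Mir100, Mir125a, Mir125b-2 and Mir125b-1. Neighbours in this order had ranges that did not overlap between the libraries, with the exception of Mir100 and Mir125a. Those were at 2963 CPM ± 321 and 2718 CPM ± 68.9, and with 2 libraries their order is not resolved. Mature RNAs are of nearly equal length, whereas the annotated hairpins range from 65 bases for Mir99a to 117 for Gm25927. Per kb of hairpin, Mir99a stood at 545152 CPM per kb ± 36777, Mir99b at 218202 ± 18202, Gm25927 at 42393 ± 92.6, Mir125a at 39970 ± 1013 and Mir100 at 37035 ± 4017. On that scale Mir125a came before Mir100, again with overlapping ranges, and Mir100 over Mir125a was 0.871 in replicate 1 and 0.980 in replicate 2. The other places were the same.

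**Figure D2:**
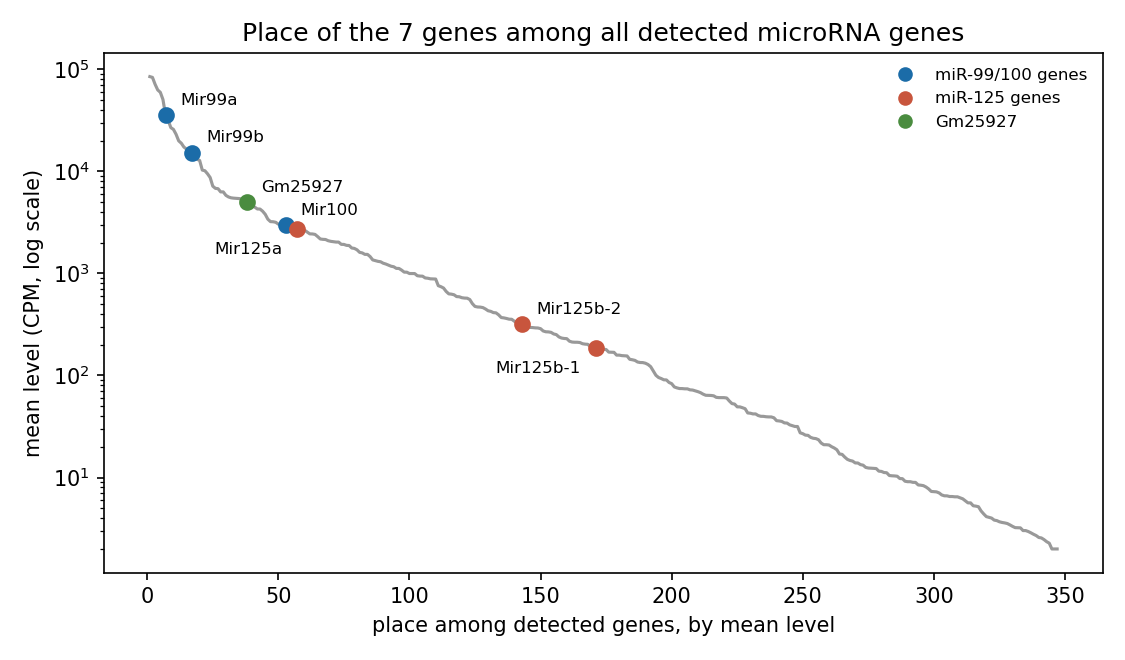
Mean level in CPM (log axis) of the 347 detected genes against their place, as a grey line, with the 7 members marked. Mir99a and Mir99b lie near the top at places 7 and 17, Gm25927, Mir100 and Mir125a at 38, 53 and 57, and the Mir125b genes at 143 and 171.

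The genes closest in mean level, directly above and below each member, were Mir335 (50501 CPM ± 1627) and Mir26b (31561 ± 382) for Mir99a, whose range overlapped neither. They were Mir23a and Mir429 for Mir99b, Mir382 and Mir22 for Mir100, and Mir375 and Mir92-1 for Mir125a. For Mir125b-2 they were Mir363 and Mir3071, and for Mir125b-1 they were Mir700 and Mir328. Gm25927 stood between Gm24321 and Mir140 and its range overlapped that of Gm24321 but not that of Mir140. All other ranges named here overlapped that of the member. The likeness is one of mean level over 2 libraries, which are too few for a likeness of pattern.

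The clusters were compared next, since the genes of a cluster can share a primary transcript. The chromosome 16 cluster (Mir99a, Mirlet7c-1 and Mir125b-2) held 3.59% ± 0.238 of gene counts, the chromosome 17 cluster (Mir99b, Gm25927 and Mir125a) 2.30% ± 0.133 and the chromosome 9 cluster (Mir100, Mirlet7a-2 and Mir125b-1) 0.335% ± 0.0305 (SD, n = 2). In each, the miR-99/100 gene had the most counts. Mir99a held 98.6% and 98.8% of the counts of its cluster, Mir100 held 87.2% and 89.4%, and Mir99b held 65.3% and 67.7%. The ranges of the 3 totals over the libraries did not overlap. The shares within the chromosome 16 and 9 clusters rest on Mir125b and let-7 genes whose 5p arms occur in several hairpins, so how evenly the clusters are expressed cannot be compared from them.

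The counts of Mir99a were 104 times those of Mir125b-2 in replicate 1 (95% interval 100.02 to 109) and 118 times in replicate 2 (112 to 125). Mir100 had 15.8 (14.9 to 16.8) and 16.04 (14.9 to 17.2) times the counts of Mir125b-1. Mir99b had 5.38 (5.30 to 5.47) and 5.85 (5.73 to 5.96) times the counts of Mir125a. The intervals of the libraries overlapped for the chromosome 9 pair and not for the others. Only the chromosome 17 pair is free of an arm shared with another gene, so the ratios of 104 to 118 and of about 16 hold the uncertainty of the Mir125b counts.

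The let-7 genes of the chromosome 16 and 9 clusters were counted low. Mirlet7c-1 stood at 158 CPM ± 6.67 and Mirlet7a-2 at 203 CPM ± 34.9. let-7c-5p also occurs in the hairpin of Mirlet7c-2, and let-7a-5p occurs in the hairpins of both Mirlet7a-1 and Mirlet7a-2. The counts of these let-7 genes, and every ratio with them, are therefore uncertain in the same way as those of the Mir125b genes. Mir99a had 207 and 242 times the counts of Mirlet7c-1. Mir100 had 12.03 times the counts of Mirlet7a-2 in replicate 1 and 17.9 times in replicate 2. Mir125b-1 had 0.762 times the counts of Mirlet7a-2 in replicate 1 and 1.12 times in replicate 2, so the order of their counts changed with the library.

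**Figure D3:**
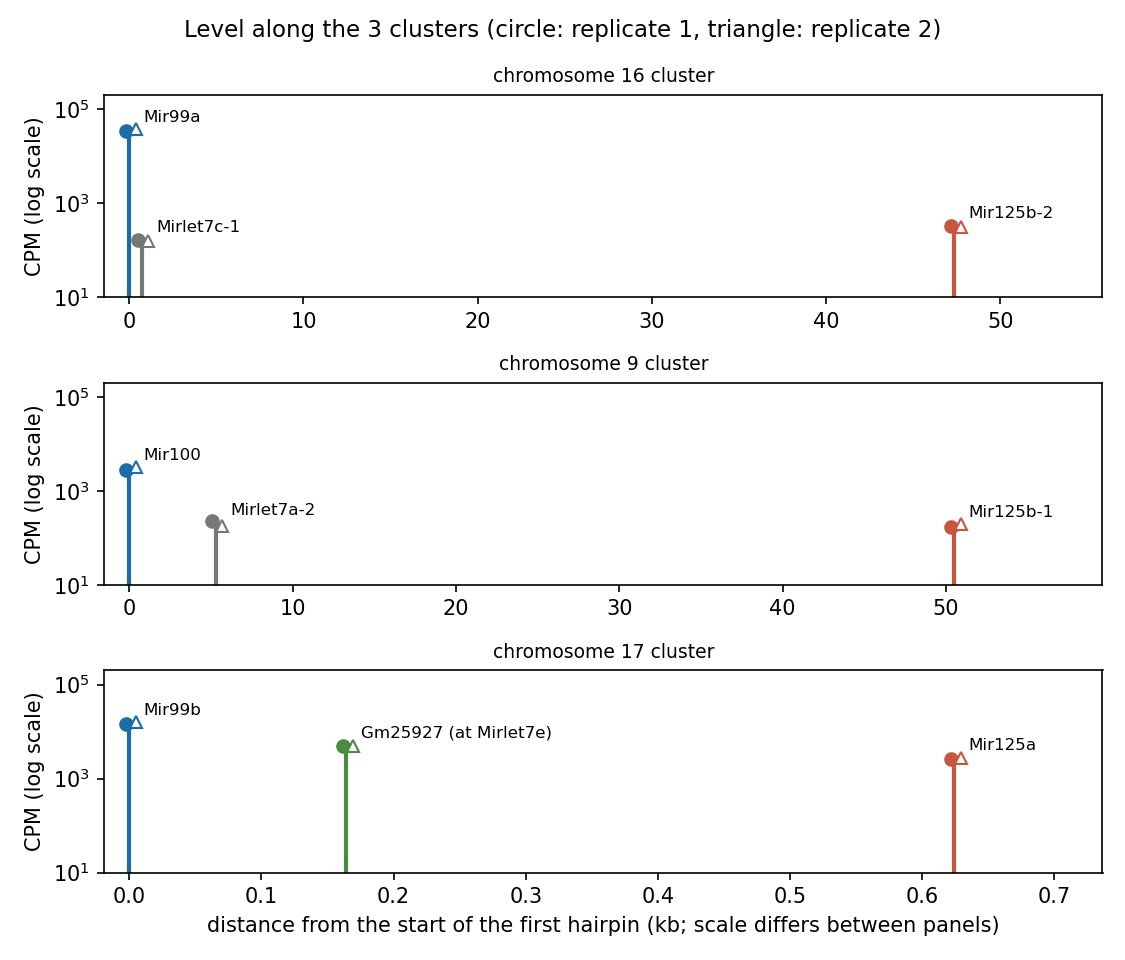
Level in CPM (log axis) against the distance in kb from the start of the first hairpin of each cluster, 1 panel per cluster with its own distance scale. Stems reach the mean, circles are replicate 1 and open triangles replicate 2; in every panel the first gene is the highest, and in the chromosome 17 cluster the outer genes lie 624 bases apart.

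Gm25927 was counted on the strand opposite to its annotation. All of its 31677 counts in replicate 1 and 20422 counts in replicate 2 were opposite-strand counts, and its sense count was 0 in both libraries. The limits given above for a count of 0, 0.470 and 0.727 CPM, hold for its sense count when scaled to all gene counts. Scaled to sense counts alone they were 0.483 and 0.748 CPM. The other 6 members had 0 opposite-strand counts in both libraries. Both arms of let-7e occurred in the tables' hairpins only as the reverse complement, in Gm25927, and the identifier of Mirlet7e is not among those of the tables. The reads of Gm25927 thus lie on the strand of Mirlet7e. Its hairpin is shown with the mature arms in capitals because this is the plus-strand RNA that the counts of Gm25927 fall on.
Mirlet7e: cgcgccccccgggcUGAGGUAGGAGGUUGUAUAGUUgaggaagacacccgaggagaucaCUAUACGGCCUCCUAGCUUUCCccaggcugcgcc

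At 4968 CPM in replicate 1 and 4952 CPM in replicate 2, Gm25927 was the steadiest member between the libraries in CPM. It held 18.8% and 18.2% of all opposite-strand counts of the tables. It was among 10 detected genes with over 90% of their counts on the opposite strand, and had the third highest mean of these after Gm25301 (5458 CPM) and Gm24321 (5091 CPM). Read as the let-7 gene of its cluster, it fills the middle place: Mir99b had 2.89 times its counts in replicate 1 (95% interval 2.86 to 2.93) and 3.27 times in replicate 2 (3.22 to 3.32), and it had 1.86 and 1.79 times the counts of Mir125a. Its annotated hairpin is the longest of the members, and per kb of hairpin the mean ratio was 5.15 for Mir99b over Gm25927, against 3.08 by counts, and 1.06 for Gm25927 over Mir125a, against 1.83. These values use the 117 bases of Gm25927. With the 93 bases of Mirlet7e, the ratio of Mir99b to it would be lower and its ratio to Mir125a higher. With sense-strand counts alone, the level at this locus would be given as 0.

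**Figure D4:**
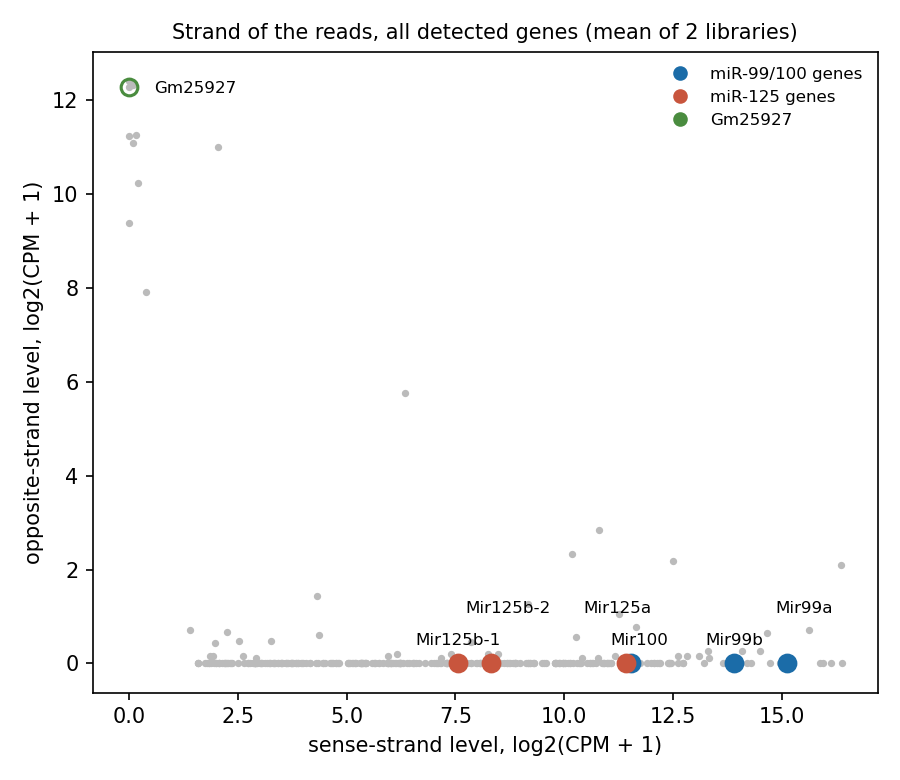
Sense-strand against opposite-strand level of the 347 detected genes, as log2(CPM + 1) of the mean of the 2 libraries. The 6 other members lie on the lower axis with 0 opposite-strand counts, and Gm25927 (open circle) lies at the upper left with 0 sense counts, over the points of Gm24321 and Gm25301.

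Genes with the miR-125 seed or a related sequence were set beside the members. Mir351, whose mature RNA has the miR-125 seed, stood at 13777.2 CPM in replicate 1 and 12489.1 CPM in replicate 2. Its counts were 5.16 and 4.51 times those of Mir125a, or 3.32 times as a mean per kb of hairpin, and it held 81.3% and 79.2% of the counts of the genes with this seed. With Mir351 included, the seed reached 16356 CPM ± 830. Reads of miR-125b-5p that match both Mir125b genes would be missing from this sum. The sum and the share of Mir351 in it are therefore uncertain. Mir6367 and Mir6394, which share the seed as well, had 0 counts in both libraries. Mir10a stood at 23048 CPM ± 851, between Mir99a and Mir99b in CPM, and Mir10b at 868 CPM in replicate 1 and 1648 CPM in replicate 2. The miR-99/100 genes together were therefore above the Mir10 genes (24305 CPM ± 1402), and no range overlapped. Per kb of hairpin, Mir10a stood at 204055 and 214990 CPM per kb, a range that overlapped the 205332 and 231073 of Mir99b.

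Between the libraries no member differed by more than 1.17-fold. Each detected gene's share of its counts in replicate 1 was set against that of the gene totals by an exact two-sided binomial test, and the 347 p-values were adjusted by the Benjamini-Hochberg method. Such a test compares the reads of these libraries, not conditions, and its p-values weigh counting error alone. It called 5 of the 7 members, against a background of 47.0% of all detected genes. All 5 were higher in replicate 2, where the background was 30.5%, and none was higher in replicate 1, where it was 16.4%. None of the 7 differed by 1.5-fold or more, a size that 9.51% of detected genes reached. With 7 members, this does not set them apart from that share.

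The 3 miR-99/100 genes were all higher in replicate 2. Mir99a was 1.100-fold higher (95% interval 1.09 to 1.11, adjusted p = 1.42e-176 by the binomial test), Mir99b 1.13-fold (1.11 to 1.14, adjusted p = 7.26e-117) and Mir100 1.17-fold (1.14 to 1.19, adjusted p = 4.49e-39). The counts behind them ran from 13155 to 215179. Over all detected genes the median fold between the libraries, taken in whichever direction it lay, was 1.12, over the 171 detected genes at or above the level of the lowest member it was 1.08, and over the 7 members it was 1.100. Mir125b-1 was 1.15-fold higher in replicate 2 (1.05 to 1.26, adjusted p = 0.00809), and Mir125a 1.04-fold (1.01 to 1.06, adjusted p = 0.00822). Mir125b-2 and Gm25927 did not pass, with adjusted p = 0.596 and 0.808, at folds of replicate 1 over replicate 2 of 1.03 (0.957 to 1.10) and 1.003 (0.986 to 1.02).

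The scale decides part of these calls. With gene totals, 57 of all called genes were higher in replicate 1 and 106 in replicate 2; with edgeR's TMM factors the split was 74 and 84, and with DESeq2's size factors 78 and 75. Mir99a, Mir99b and Mir100 passed and were higher in replicate 2 on all 3 scales. Mir125a passed with gene totals only (adjusted p = 0.511 and 1 with the other factors). Mir125b-1 did not pass with DESeq2's size factors (adjusted p = 0.0637). Gm25927 passed with both other factors, as higher in replicate 1 (adjusted p = 0.00408 with TMM factors and 5.50e-05 with size factors). Median log2 ratios of replicate 1 over replicate 2 were -0.14 over the members and -0.05 over all detected genes.

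Related genes and tissue markers moved between the libraries too. Mir351 was 1.10-fold higher in replicate 1 and Mirlet7a-2 1.28-fold higher in replicate 1, while Mir10b was 1.90-fold higher in replicate 2. The endothelial marker Mir126a stood at 87277 CPM in replicate 1 and 79120 in replicate 2. Summed markers of smooth muscle and mesenchyme stood at 75785 and 78212 CPM, of epithelium at 32596 and 33935 and of multiciliated cells at 15414 and 19573. Single genes held most of the first and last sums: Mir143 with 70224.4 and 72270.2 CPM, and Mir449a with 14580.5 and 18444.9 CPM. Of markers from outside the lung, Mir122 of liver stood at 111 and 601 CPM. Muscle markers summed to 830.4 and 968 CPM, from Mir206 and Mir208a, and blood markers to 1723 and 1380.3 CPM. The muscle sum hides opposite differences: Mir206 stood at 294 and 643 CPM, and Mir208a at 536 and 324 CPM. Mir1a-1 and Mir133a-1 of muscle had 0 counts in both libraries, and as their mature RNAs also come from several genes, these zeros do not bear on muscle. Their part in the differences of the members was not tested.

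**Figure D5:**
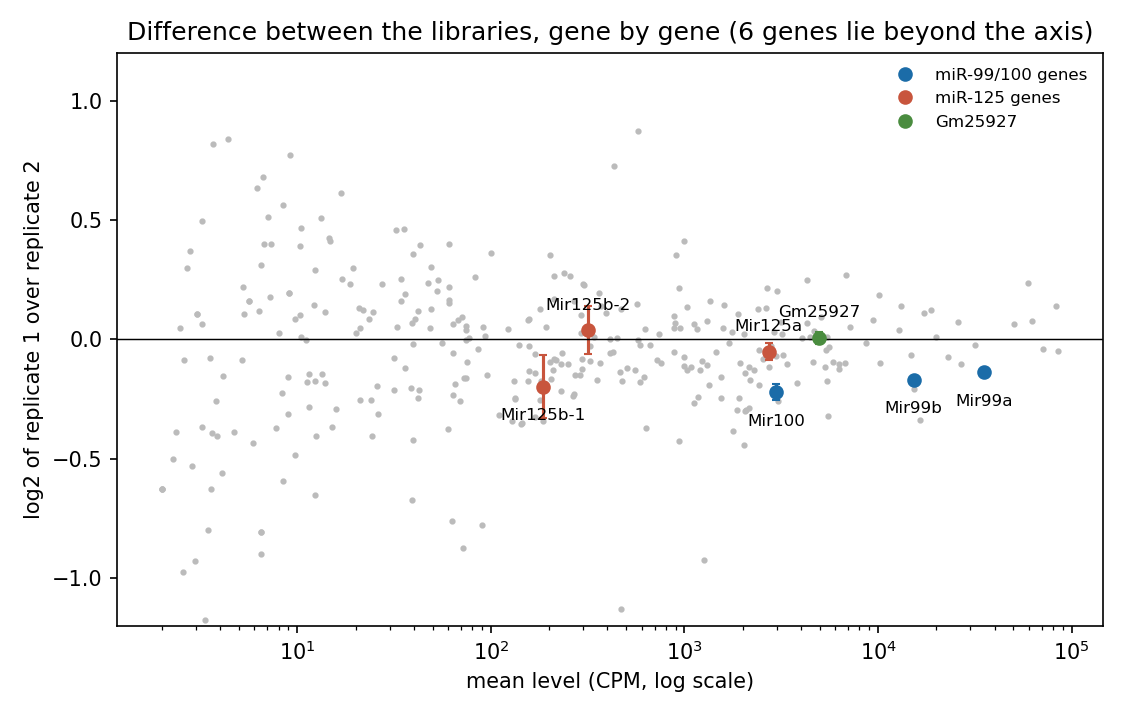
Log2 ratio of replicate 1 over replicate 2 against mean level in CPM (log axis) for the detected genes, in grey, with the members coloured and 95% counting intervals as bars; 6 genes lie beyond the axis. The miR-99/100 genes lie between -0.22 and -0.14, and Mir125b-2 is the highest member at 0.04.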

How the data were processed

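Small RNA of embryonic day 16.5 lung was counted in 2 libraries, replicates 1 and 2 of a single group per the labels. The authors deposited whole-number counts per microRNA gene, which the deposited listings tie to assembly mm10 and GENCODE release M4. An aligner, a counter and trimming steps were not given in the sources used here. No header names these columns. The first was taken as the count without strand, because it is the total of both strand columns for each of the 1973 genes, and of the strand columns the one with most counts was read as sense. The 4 lines of reads outside genes entered no total of gene counts.

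Counts were scaled to CPM over genes. Symbols, positions and hosts come from GENCODE M21 (1894 identifiers matched) and sequences from RefSeq. All 7 members matched a gene. RefSeq mature sequences were found for the 6 microRNA members. Ratios and shares carry exact Clopper-Pearson intervals at 95%, which cover counting error only, since no molecular identifiers are named. Libraries were compared per gene by an exact binomial test with Benjamini-Hochberg adjustment at 0.05 over genes with at least 10 counts in each. A quasi-likelihood fit needs groups and was not possible. edgeR 4.0.16 and DESeq2 1.42.0 (R 4.3.3) gave alternative scale factors from detected genes. Python 3.11.15, numpy 2.4.6, scipy 1.17.1 and pandas 2.3.3 did the rest. The test was run on simulated counts that held counting error only, scaled by the totals of genes left unchanged. That check says nothing of further spread between libraries or of the choice of scale. Alternatives also covered the count column, the denominator, the count minimum, hairpin length and each replicate left out.

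The members, lists and tests were chosen with earlier results of these data known. Named genes were the members, their cluster mates, seed and sequence relatives, and the detected genes next above and below in mean CPM. Whether the replicates are separate litters is not stated, so intervals and p-values say nothing of animals.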

Additional observations from a re-analysis of the deposited data

How the results depend on the processing

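With all reads of the table as the denominator, the summed level of the 7 genes was 30403 CPM in place of 61855, and the cluster shares were 1.77% (chromosome 16), 0.165% (chromosome 9) and 1.13% (chromosome 17), since a denominator about as large again as the gene total scales every level. With sense-strand counts the chromosome 17 cluster held 1.85%, because Gm25927 then has no counts. Per kb of hairpin, Mir99a over Mir125b-2 was 121 and Mir100 over Mir125b-1 was 15.3, and Mir100 fell below Mir125a (0.926 against 1.09 by counts). The ratio of Mir125b-1 to Mirlet7a-2 was 0.940 by counts and 1.17 per kb, and ran from 0.762 without replicate 2 to 1.12 without replicate 1. The number of members called was 4 with DESeq2's size factors and 5 under the other 5 alternatives run. The 33 detected genes that differed by 1.5-fold were 13 with a minimum of 50 counts and 80 at a lower threshold of fold, which no member reached. Of the 152 alternative values, 121 were tallied as the same, a label meant for an unchanged direction or a move smaller than the spread between the libraries. A further 28 moved by more and 3 changed direction. The label also covers counts of calls that changed: with DESeq2's size factors, 4 members in place of 5 and 153 genes in place of 163. With TMM factors 5 members were called again, but Mir125a had lost its call and Gm25927 had gained one. Part of the 121 was fixed in advance. With a replicate left out, a value could not move by more than that spread. Ratios of genes without opposite-strand counts could not change with sense-strand counts. For these alternatives the tally does not measure how firm the results are. Mir125b-1, with 1105 and 820 counts, had the widest counting interval of the members relative to its level.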
